A study of Homo sapiens with 12 samples.

Results

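NRF2, encoded by NFE2L2, is a transcription factor that switches on genes for the defense against oxidants and electrophiles. In unstressed cells its partner KEAP1 delivers it to degradation, and oxidants, or the autophagy receptor SQSTM1, release it from KEAP1, so that it pairs with small MAF proteins at antioxidant response elements. Its targets make glutathione and thioredoxin, keep both reduced with NADPH, and detoxify reactive compounds, and the pathway is often active in hepatocellular carcinoma, where the liver cell already carries much of this chemistry. The genes examined here are a list of 43 regulators and enzymes of this defense, chosen by name, though with earlier results of these data known. A probe was found for 40 of the 43 through its RefSeq transcript, out of 20503 genes named on the array, and the 40 have 53 probes. No probe was matched to PRDX2, AKR1C2 or GSTA1.

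HA22T and PLC5 are established human hepatocellular carcinoma (HCC) cell lines. Cells of each line were transfected for 48 h with 10 nM of siControl, a non-targeting siRNA, or of siGALNT1, a pool of siRNAs against GALNT1, an enzyme that starts mucin-type O-glycans, and RNA was hybridized to 12 one-color arrays, 3 in each of 4 groups. The labels do not say whether the 3 arrays came from separate cultures, so p-values measure the spread between arrays, which may be technical. The pool was tested as 1 reagent in each line, and the siRNA effect is therefore that of the pool.

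Levels below are log2 values of the background-corrected signal relative to the 75th percentile of the array, so 0 is the 75th percentile and a step of 1 is a doubling. Where a gene has several probes the brightest was used, and levels of different genes are not compared because probes differ in brightness. A gene was called when limma's moderated test gave a Benjamini-Hochberg adjusted p below 0.05 over all probes that were above background. All 40 genes passed the filter on dim probes in every comparison. Between 36679 and 48873 of the 58717 spots on an array were well above background. GALNT1 itself, the check of the knockdown, lay at 1.41, 1.06 and 1.00 in HA22T siControl, -2.83, -3.28 and -5.35 in HA22T siGALNT1, 0.99, 0.41 and 0.67 in PLC5 siControl and -1.85, -3.44 and -3.77 in PLC5 siGALNT1. Its level was thus far lower in all siGALNT1 arrays, by -4.98 ± 0.63 (SE) in HA22T and -3.71 ± 0.63 (SE) in PLC5 on the log2 scale, although by the brightest probe neither difference passed the adjustment (adjusted p = 0.118 and 1 by limma, unadjusted p = 6.5e-06 and 9.6e-05). A dimmer GALNT1 probe was called in HA22T (-4.63, adjusted p = 0.0486) and not in PLC5 (-3.02, adjusted p = 1). Of 10 hepatocyte markers, 8 were higher in PLC5 than in HA22T with siControl, against 11.1% of all genes. APOB lay at 4.68, 4.37 and 4.72 in PLC5 siControl against -4.68, -4.58 and -5.29 in HA22T siControl. The summed signal of the 10 markers, relative to the 75th percentile, was 110 to 188 on the PLC5 siControl arrays and 8.27 to 8.86 on the HA22T siControl arrays, where 5 of the 10 were well above background on every array, APOB on 2 of the 3 and TF on 1. Of 6 mesenchymal markers 3 were lower and 1 higher in PLC5 with siControl, against 16.6% and 11.1% of all genes. All 5 genes listed as immune markers were well above background on every array of both lines by their brightest probes. The 3 other PTPRC probes were so on only 0, 5 and 6 of the 12 arrays. Whether this difference in liver character has a part in the differences below was not tested.

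The arrays show a split picture between the lines. With siControl, 19 of the 40 genes differed between PLC5 and HA22T, 7 higher and 12 lower in PLC5, which is 47.5% of the list against 27.7% of all 17417 genes tested. NFE2L2, the transcription factor itself, was higher in PLC5, while NQO1, SQSTM1, OSGIN1, thioredoxin and its reductase and the aldo-keto reductases AKR1C1 and AKR1C3 were lower. The genes with the largest differences went the other way. GPX2 was 454-fold, GSTM3 69.3-fold and GSTP1 54.7-fold higher in PLC5 on the scale used here. For GPX2 and GSTM3 the size depends on the background correction, as normexp gave log2 differences of 8.01 and 4.95 in place of 8.83 and 6.12. Over the 40 genes the median log2 fold change was -0.60 and the mean 0.02 (the 3 large differences are all positive), whereas the median over all genes tested was -0.21. Differences in signal are therefore also read against a shift of -0.21, and 25 of the 40 genes lay below it and 15 above it. For 28 of the 39 genes with a value on all 6 siControl arrays the lines did not overlap, against 49.0% of all genes. The arrays read RNA of whole cultures, so fewer cells expressing a gene and less of its RNA in each cell cannot be told apart.

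**Figure D1:**
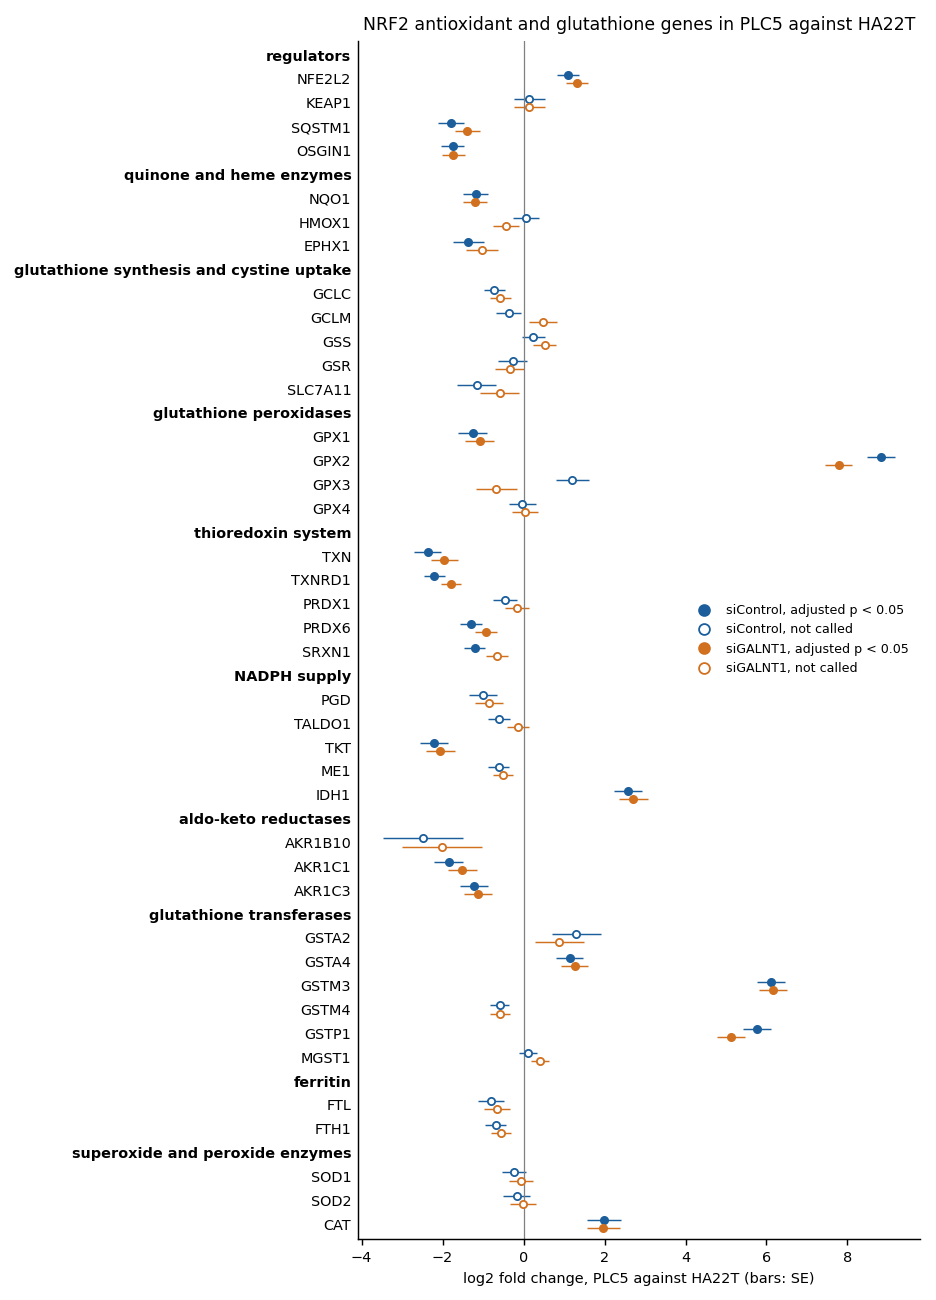
Log2 fold change of PLC5 against HA22T for the 40 genes with a probe, ordered by role, with siControl in blue and siGALNT1 in orange. Points are limma estimates, bars are standard errors, and filled points have an adjusted p below 0.05. GPX2, GSTM3 and GSTP1 lie between 5.12 and 8.83 with both siRNAs, and no other gene exceeds 2.71.

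To show the DNA next to which these genes start, RefSeq promoter windows of GRCh38.p14, from 250 bases before to 50 bases after each gene start, were searched for TGACNNNGC, the core of the antioxidant response element, on both strands. The table holds 34 of the 43 genes, and 11 of these 34 (32.4%) had a match in at least 1 window, against 16.1% of the 27305 genes in the table and 18.9% of those that were also tested on the arrays. Of the 19 genes that differed with siControl, 18 are in the table. A match was found in 4 of the 7 that were higher in PLC5 (GPX2, GSTP1, IDH1 and GSTA4) and in 2 of the 11 that were lower (TXNRD1 and EPHX1). The stretches around a match in these 6 promoters are shown because they join both directions of the line difference. Each is written on the strand of the gene, ends before its start, and has the match in capitals. In GPX2 the element is on the opposite strand and so reads GCNNNGTCA. The GSTP1 match also contains TGACTCA, the AP-1 element, which overlaps this core, and the other 5 shown do not. TXNRD1 had further matches in its windows, which are not shown.
GPX2, chr14:64942833-64942893, minus strand: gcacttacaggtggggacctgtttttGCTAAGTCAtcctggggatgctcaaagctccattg
GSTP1, chr11:67583720-67583780, plus strand: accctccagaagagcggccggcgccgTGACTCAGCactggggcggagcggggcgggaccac
IDH1, chr2:208255180-208255240, minus strand: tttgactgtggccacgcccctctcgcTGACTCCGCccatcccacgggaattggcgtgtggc
GSTA4, chr6:52995285-52995319, minus strand: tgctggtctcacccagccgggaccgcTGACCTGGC
TXNRD1, chr12:104215654-104215714, plus strand: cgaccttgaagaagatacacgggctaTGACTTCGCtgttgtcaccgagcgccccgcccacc
EPHX1, chr1:225825250-225825310, plus strand: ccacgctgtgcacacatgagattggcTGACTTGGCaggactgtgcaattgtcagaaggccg
A match is a run of letters and not an occupied site, and a promoter without one may hold an element outside these windows.

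The regulators did not move together. NFE2L2 lay at 1.39, 1.12 and 1.03 in HA22T siControl, 0.94, 1.03 and 1.24 in HA22T siGALNT1, 2.71, 1.81 and 2.32 in PLC5 siControl and 2.45, 2.51 and 2.22 in PLC5 siGALNT1. Every PLC5 array was above every HA22T array, and the difference was 1.099 ± 0.27 (SE) with siControl (adjusted p = 0.0121 by limma) and 1.32 ± 0.27 (SE) with siGALNT1 (adjusted p = 0.00436). The siControl call was lost within slide 1 (1.53, adjusted p = 0.0528), by the methods' t-test (adjusted p = 0.0777), without the PLC5 replicate 1 pair (0.89, adjusted p = 0.0531) and without both replicate 1 pairs (0.99, adjusted p = 0.0639), and the siGALNT1 call within slide 1 (1.38, adjusted p = 0.0698). KEAP1, the repressor of NRF2, lay at 0.67, -0.39 and -0.37 in HA22T siControl, 0.55, -0.17 and -0.24 in HA22T siGALNT1, 0.54, -0.41 and 0.20 in PLC5 siControl and 0.59, 0.05 and -0.08 in PLC5 siGALNT1. Its lines overlapped, the difference with siControl was 0.14 ± 0.38 (SE) (adjusted p = 0.84), and the 4 arrays of replicate 1 were the highest in their groups.

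SQSTM1, which binds KEAP1 and carries it to autophagy, lay at 7.57, 6.87 and 7.22 in HA22T siControl, 7.12, 7.00 and 7.01 in HA22T siGALNT1, 5.93, 4.99 and 5.37 in PLC5 siControl and 6.09, 5.41 and 5.46 in PLC5 siGALNT1. All PLC5 arrays were below all HA22T arrays, with differences of -1.79 ± 0.31 (SE) with siControl (adjusted p = 0.00153) and -1.39 ± 0.31 (SE) with siGALNT1 (adjusted p = 0.00762). OSGIN1, an oxidative stress-induced growth inhibitor and NRF2 target, lay at 1.60, 1.45 and 1.31 in HA22T siControl, 1.53, 1.69 and 1.18 in HA22T siGALNT1, 0.05, -0.64 and -0.30 in PLC5 siControl and -0.21, -0.67 and 0.07 in PLC5 siGALNT1. It was lower in PLC5 by a similar step with each siRNA, -1.75 ± 0.28 (SE) with siControl (adjusted p = 9.4e-04) and -1.74 ± 0.28 (SE) with siGALNT1 (adjusted p = 0.00105). NFE2L2 mRNA was thus higher in the line in which SQSTM1 and OSGIN1 mRNA was lower, and the arrays give no measure of NRF2 protein.

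**Figure D2:**
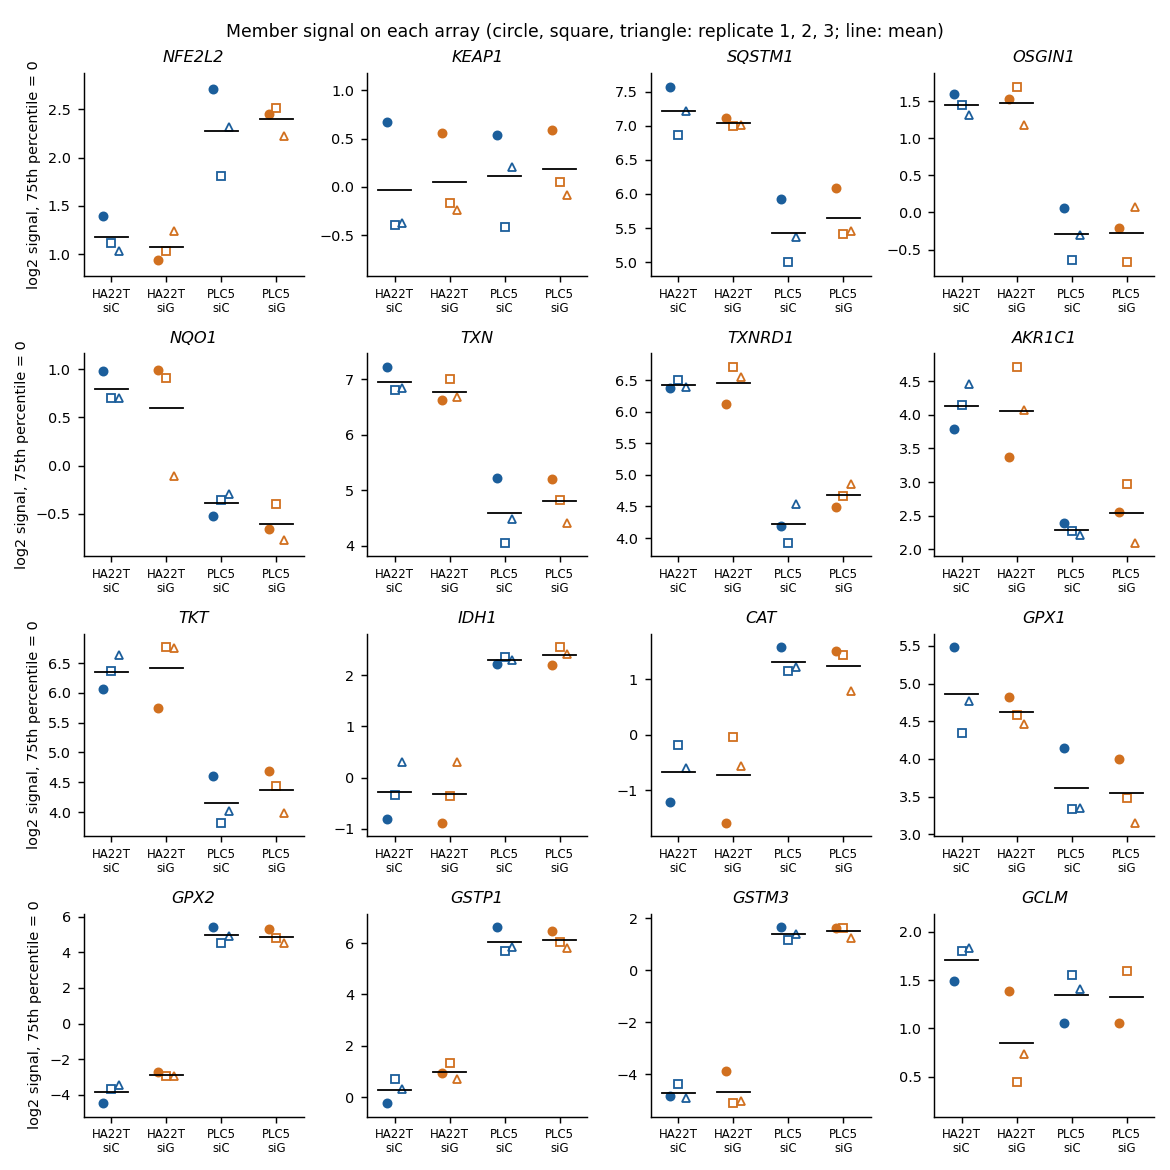
Log2 signal of 16 genes on each of the 12 arrays, with 0 at the 75th percentile of the array and siC and siG for siControl and siGALNT1. Circles, squares and triangles are replicates 1, 2 and 3, lines are group means, and each panel has its own vertical scale. GPX2 lies between -4.47 and -2.72 in HA22T and between 4.51 and 5.42 in PLC5.

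Of the quinone and heme enzymes, 2 of 3 were lower in PLC5 with siControl, against 16.6% of all genes. NQO1, the quinone reductase often used as a readout of NRF2, lay at 0.98, 0.70 and 0.70 in HA22T siControl, 0.99, 0.90 and -0.10 in HA22T siGALNT1, -0.52, -0.35 and -0.29 in PLC5 siControl and -0.65, -0.40 and -0.77 in PLC5 siGALNT1. The lowest HA22T array, siGALNT1 replicate 3, was still above the highest PLC5 array, and the difference was -1.18 ± 0.30 (SE) with siControl (adjusted p = 0.0152) and -1.20 ± 0.30 (SE) with siGALNT1 (adjusted p = 0.0141). Leaving out HA22T siControl replicate 1 gave -1.09 with an adjusted p of 0.0568, so the siControl call rests on that array. The siGALNT1 call was lost without HA22T siGALNT1 replicate 1 (-1.01, adjusted p = 0.0504) or replicate 2 (-1.05, adjusted p = 0.0579). EPHX1, microsomal epoxide hydrolase, lay at 2.84, 3.38 and 4.06 in HA22T siControl, 2.65, 3.47 and 3.66 in HA22T siGALNT1, 2.01, 2.27 and 1.91 in PLC5 siControl and 1.99, 2.84 and 1.87 in PLC5 siGALNT1. It was lower in PLC5 with siControl, by -1.36 ± 0.39 (SE) (adjusted p = 0.0283), and not called with siGALNT1 (-1.03 ± 0.39 (SE), adjusted p = 0.0777). Its siControl call was lost without HA22T replicate 2 or 3 or without any PLC5 siControl array, at -1.46 to -1.04. HMOX1, which degrades heme, did not separate the lines (0.07 ± 0.32 (SE) with siControl, adjusted p = 0.909).

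In glutathione synthesis and cystine uptake none of 5 genes was called in either line comparison, against 27.7% of all genes with siControl and 28.9% with siGALNT1. GCLC, the catalytic subunit of glutamate-cysteine ligase, had the smallest p of these with siControl, with a log2 fold change of -0.72 ± 0.26 (SE) (adjusted p = 0.0714) and no overlap between the 3 PLC5 and 3 HA22T arrays. Non-overlap of this kind was found for 49.0% of all genes in that comparison. SLC7A11, the cystine transporter, differed by -1.16 ± 0.48 (SE) (adjusted p = 0.117), and GCLM, the modifier subunit, by -0.37 ± 0.31 (SE) (adjusted p = 0.453). GSS, glutathione synthetase, and GSR, glutathione reductase, differed by 0.24 and -0.27 (adjusted p = 0.599 and 0.652). The 2 probes of GSR disagreed, as the dimmer one was higher in PLC5, by 0.78 with siControl (adjusted p = 0.145) and by 1.09 with siGALNT1 (adjusted p = 0.0424).

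Glutathione peroxidases reduce peroxides at the expense of glutathione, and the 4 genes of this group diverged. GPX2, the gastrointestinal form, lay at -4.47, -3.68 and -3.46 in HA22T siControl, -2.72, -2.97 and -2.97 in HA22T siGALNT1, 5.42, 4.51 and 4.94 in PLC5 siControl and 5.30, 4.84 and 4.54 in PLC5 siGALNT1. Every PLC5 array was above every HA22T array, and the difference was 8.83 ± 0.34 (SE) with siControl (adjusted p = 5.4e-08) and 7.78 ± 0.34 (SE) with siGALNT1 (adjusted p = 1.2e-07). GPX1, the ubiquitous form, lay at 5.48, 4.35 and 4.77 in HA22T siControl, 4.83, 4.58 and 4.47 in HA22T siGALNT1, 4.15, 3.34 and 3.34 in PLC5 siControl and 3.99, 3.49 and 3.15 in PLC5 siGALNT1. It was lower in PLC5, by -1.26 ± 0.36 (SE) with siControl (adjusted p = 0.0267), and its second probe gave -1.53 (adjusted p = 0.0109). The call from the brightest probe was lost without HA22T siControl replicate 1 or 3 or PLC5 siControl replicate 2 or 3, at -1.31 to -0.95.

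GPX3, the secreted form, lay at 1.17 and 2.39 on the 2 HA22T siControl arrays and 3.54 on the 1 HA22T siGALNT1 array whose spot was not excluded as non-uniform, and at 2.92, 3.06 and 2.95 in PLC5 siControl and 2.53, 2.88 and 3.20 in PLC5 siGALNT1. From these arrays it was not called in either line comparison (1.20 ± 0.41 (SE) with siControl, adjusted p = 0.0717). A dimmer probe with a value on every array was higher in PLC5, by 2.85 with siControl (adjusted p = 4.1e-05) and 2.51 with siGALNT1 (adjusted p = 1.1e-04). GPX4, which protects membrane lipids, differed by -0.03 ± 0.33 (SE) with siControl (adjusted p = 0.967).

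Of the 5 thioredoxin system genes of the list with a probe, 4 were lower in PLC5 with siControl, against 16.6% of all genes. The median log2 fold change of the 5 was -1.30, against -0.21 over all genes. Related genes outside the list did not all go this way. PRDX4 and PRDX5 were above HA22T on every PLC5 siControl array, TXNRD2 was below, and PRDX3 and TXN2 overlapped. The lines did not overlap for 49.0% of all genes. TXN, thioredoxin, lay at 7.22, 6.81 and 6.84 in HA22T siControl, 6.64, 7.00 and 6.68 in HA22T siGALNT1, 5.21, 4.06 and 4.49 in PLC5 siControl and 5.20, 4.83 and 4.42 in PLC5 siGALNT1. TXNRD1, the reductase that returns it to its active form, lay at 6.38, 6.51 and 6.39 in HA22T siControl, 6.13, 6.71 and 6.55 in HA22T siGALNT1, 4.20, 3.93 and 4.54 in PLC5 siControl and 4.50, 4.67 and 4.86 in PLC5 siGALNT1. For both genes all PLC5 arrays were below all HA22T arrays. With siControl the difference was -2.37 ± 0.33 (SE) for TXN and -2.21 ± 0.26 (SE) for TXNRD1 (adjusted p = 3.2e-04 and 8.3e-05), or 5.16-fold and 4.62-fold. With siGALNT1 it was -1.96 ± 0.33 (SE) and -1.79 ± 0.26 (SE) (adjusted p = 0.00131 and 4.1e-04).

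PRDX6, a peroxiredoxin that uses glutathione, lay at 6.13, 5.88 and 5.90 in HA22T siControl, 5.63, 6.10 and 5.75 in HA22T siGALNT1, 5.03, 4.27 and 4.74 in PLC5 siControl and 5.25, 4.74 and 4.71 in PLC5 siGALNT1. It was lower on every PLC5 array than on any HA22T array, by -1.29 ± 0.28 (SE) with siControl (adjusted p = 0.00555) and -0.93 ± 0.28 (SE) with siGALNT1 (adjusted p = 0.0311). The siGALNT1 call was lost without replicate 2 or 3 of HA22T or PLC5 siGALNT1, at -0.96 to -0.79, and in 9 of 18 other alternatives, among them quantile normalization (-0.36, adjusted p = 0.336) and the deposited table (-0.71, adjusted p = 0.0926). SRXN1, which repairs oxidized peroxiredoxins, lay at 1.15, 1.34 and 1.05 in HA22T siControl, 0.85, 0.72 and 0.95 in HA22T siGALNT1, 0.04, -0.55 and 0.41 in PLC5 siControl and 0.11, 0.19 and 0.23 in PLC5 siGALNT1. It too was below HA22T on every PLC5 array, and the difference was called with siControl (-1.21 ± 0.27 (SE), adjusted p = 0.00669) and not with siGALNT1 (-0.66 ± 0.27 (SE), adjusted p = 0.0904). PRDX1 was not called (-0.46 ± 0.30 (SE) with siControl, adjusted p = 0.318).

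The NADPH-supplying enzymes split in the same way. TKT, transketolase of the pentose phosphate pathway, lay at 6.07, 6.37 and 6.63 in HA22T siControl, 5.74, 6.77 and 6.75 in HA22T siGALNT1, 4.61, 3.82 and 4.01 in PLC5 siControl and 4.68, 4.43 and 3.98 in PLC5 siGALNT1. It was lower in PLC5, by -2.21 ± 0.35 (SE) with siControl (adjusted p = 8.5e-04) and -2.05 ± 0.35 (SE) with siGALNT1 (adjusted p = 0.00151). IDH1, cytosolic isocitrate dehydrogenase, lay at -0.82, -0.35 and 0.31 in HA22T siControl, -0.89, -0.37 and 0.30 in HA22T siGALNT1, 2.22, 2.36 and 2.31 in PLC5 siControl and 2.21, 2.55 and 2.42 in PLC5 siGALNT1. It was 6-fold higher in PLC5 with siControl (2.58 ± 0.35 (SE), adjusted p = 2.7e-04) and 6.55-fold higher with siGALNT1 (adjusted p = 2.1e-04). PGD, TALDO1 and ME1 had log2 fold changes of -1.01, -0.61 and -0.61 with siControl and were not called (adjusted p = 0.0584, 0.13 and 0.116). For each the 3 PLC5 siControl arrays were below the 3 HA22T siControl arrays. The lines did not overlap, in either direction, for 49.0% of all genes.

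The aldo-keto reductases, which reduce aldehydes and ketones, were all lower in PLC5 by their point estimates. With siControl 2 of 3 were called, against 16.6% of all genes called lower. AKR1C1 lay at 3.79, 4.15 and 4.46 in HA22T siControl, 3.37, 4.71 and 4.07 in HA22T siGALNT1, 2.38, 2.27 and 2.20 in PLC5 siControl and 2.56, 2.98 and 2.10 in PLC5 siGALNT1. Its difference was -1.85 ± 0.36 (SE) with siControl (adjusted p = 0.00315), -1.51 ± 0.36 (SE) with siGALNT1 (adjusted p = 0.0107), and -2.52 with siControl for its second probe (adjusted p = 7.6e-04). AKR1C3 lay at 5.48, 5.75 and 6.03 in HA22T siControl, 5.00, 6.16 and 5.99 in HA22T siGALNT1, 4.82, 4.30 and 4.45 in PLC5 siControl and 4.74, 4.85 and 4.17 in PLC5 siGALNT1. All its PLC5 arrays were below HA22T (-1.23 ± 0.34 (SE) with siControl, adjusted p = 0.0243), and the call was lost without HA22T siControl replicate 2 or 3 or PLC5 siControl replicate 2 or 3, at -1.23 to -1.09. AKR1C genes are close in sequence, so their probes may share signal with each other and with AKR1C2.

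AKR1B10, an aldo-keto reductase known from liver tumors, lay at -2.74, 0.12 and 0.79 in HA22T siControl, -3.13, -0.35 and 0.38 in HA22T siGALNT1, -3.29, -2.97 and -3.03 in PLC5 siControl and -3.98, -2.27 and -2.87 in PLC5 siGALNT1. The 4 HA22T arrays of replicates 2 and 3 lay at -0.35 to 0.79, and the 2 of replicate 1 lay with the PLC5 arrays. The difference between the lines was -2.48 ± 0.98 (SE) with siControl (adjusted p = 0.0974), and without HA22T siControl replicate 1 it was -3.55 (adjusted p = 0.0185). A second AKR1B10 probe showed the same pair apart, at -3.37 and -3.83 on the replicate 1 arrays against -1.16 to 0.23 on the others.

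Glutathione transferases attach glutathione to reactive compounds, and 3 of the 6 measured were higher in PLC5 and none lower. With siControl 11.1% of all genes were called higher and 16.6% lower. GSTP1, the pi class enzyme, lay at -0.22, 0.73 and 0.32 in HA22T siControl, 0.93, 1.34 and 0.70 in HA22T siGALNT1, 6.61, 5.70 and 5.84 in PLC5 siControl and 6.48, 6.06 and 5.79 in PLC5 siGALNT1. The difference was 5.77 ± 0.35 (SE) with siControl (adjusted p = 7.7e-07) and 5.12 ± 0.35 (SE) with siGALNT1 (adjusted p = 1.9e-06). GSTM3, of the mu class, lay at -4.85, -4.37 and -4.91 in HA22T siControl, -3.88, -5.11 and -5.04 in HA22T siGALNT1, 1.65, 1.17 and 1.39 in PLC5 siControl and 1.61, 1.64 and 1.24 in PLC5 siGALNT1. It was well above background on 2 of the 3 HA22T siControl arrays and 1 of the 3 HA22T siGALNT1 arrays, and the difference of 6.12 ± 0.34 (SE) with siControl (adjusted p = 5.3e-07) therefore starts from signal close to background.

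GSTA4, which conjugates the lipid peroxidation product hydroxynonenal, was higher in PLC5 by 1.14 ± 0.34 (SE) with siControl (adjusted p = 0.033) and 1.26 ± 0.34 (SE) with siGALNT1 (adjusted p = 0.0199). Its siControl call was lost without HA22T replicate 1, at 0.82, or without any 1 of the PLC5 siControl arrays, at 0.99 to 1.23. GSTA2, GSTM4 and the microsomal MGST1 were not called (1.31, -0.59 and 0.11, adjusted p = 0.158, 0.106 and 0.788). Without HA22T siControl replicate 3, on which GSTA2 read -2.41 against -5.11 and -4.83 on the other two, the GSTA2 difference was 2.16 (adjusted p = 0.00358).

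Ferritin, which stores iron, and the superoxide and peroxide enzymes contributed 1 call with siControl, where 27.7% of all genes were called. CAT, catalase, lay at -1.21, -0.19 and -0.60 in HA22T siControl, -1.59, -0.04 and -0.56 in HA22T siGALNT1, 1.58, 1.15 and 1.22 in PLC5 siControl and 1.50, 1.43 and 0.78 in PLC5 siGALNT1. All PLC5 arrays were above all HA22T arrays, by 1.98 ± 0.41 (SE) with siControl (adjusted p = 0.00463) and 1.97 ± 0.41 (SE) with siGALNT1 (adjusted p = 0.00509). The superoxide dismutases SOD1 and SOD2 differed by -0.24 and -0.17 with siControl (adjusted p = 0.635 and 0.766). The ferritin chains were not called, with FTL at -0.81 ± 0.32 (SE) and FTH1 at -0.69 ± 0.26 (SE) (adjusted p = 0.0951 and 0.0807). Both were lower on every PLC5 siControl array than on any HA22T siControl array, and 49.0% of all genes had no overlap in either direction. Of the 3 other FTH1 probes 1 was called, at -0.75 (adjusted p = 0.0393).

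With siGALNT1, on arrays that the siControl comparison does not use, 17 of the 40 genes differed between the lines, 7 higher and 10 lower in PLC5, or 42.5% against 28.9% of all 17201 genes tested. All 17 were among the 19 called with siControl, and the 2 others were EPHX1 and SRXN1. Beside NQO1 and PRDX6, calls lost with 1 array left out were those of GSTA4 (without HA22T siGALNT1 replicate 1, at 0.98, or PLC5 siGALNT1 replicate 2, at 1.26), of AKR1C3 (without HA22T siGALNT1 replicate 2 or 3, any PLC5 siGALNT1 array or PLC5 siControl replicate 3, at -1.26 to -0.91) and of GPX1 (without any HA22T siGALNT1 array, PLC5 siGALNT1 replicate 2 or 3, HA22T siControl replicate 3 or PLC5 siControl replicate 2 or 3, at -1.16 to -0.89). The median log2 fold change of the list was -0.53, the mean 0.10, and the median of all genes -0.29. For 25 of the 38 genes with all 6 values the lines did not overlap, against 48.3% of all genes. Both comparisons share the estimate of the spread.

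The lines were not spread evenly over the slides. Slide 1 held all 6 HA22T arrays and the PLC5 arrays of replicate 1, and slide 2 the other 4 PLC5 arrays. Within slide 1, 1 PLC5 siControl array was set against 3 HA22T siControl arrays, with the spread pooled over the slide. These arrays also entered the calls, so the sign of a called gene there is no independent check. The 19 genes called with siControl all kept their sign within slide 1. GPX2, GSTM3, GSTP1, TXN and TXNRD1 were called there, 5 in all. On that slide the log2 difference of PLC5 from HA22T was -1.74 for TXN, -2.23 for TXNRD1 and 9.29 for GPX2. With the slide as a block, 15 of the 19 were called, and AKR1C3, EPHX1, GPX1 and GSTA4 were not (adjusted p = 0.134, 0.0612, 0.197 and 0.123). The calls over all genes fell too, to 3777 of 17417 with that block from 4824 of 17417 without it.

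With the knockdown of GALNT1 no gene of the list passed the adjusted threshold in either line. In HA22T 0 of 40 genes were called by limma, against 0.0% of 16967 genes, and 3 of 40 had an unadjusted p below 0.05, against 2.82% of all genes. The 3 were GPX3, GPX2 and GCLM. The methods' t-test called 0 after Benjamini-Hochberg adjustment, and 2 of 40, GPX2 and GCLM, had an unadjusted p below 0.05 by it with a fold of at least 1.5, against 1.61% of all genes. On each of the 3 siGALNT1 arrays GPX2 was above all siControl arrays, with an estimate of 0.98 ± 0.34 (SE) (95% interval 0.23 to 1.73, unadjusted p = 0.0148, adjusted p = 1) and HA22T levels of -4.47 to -2.72 in all. GCLM lay at 1.49, 1.80 and 1.83 in HA22T siControl, 1.38, 0.44 and 0.73 in HA22T siGALNT1, 1.06, 1.56 and 1.41 in PLC5 siControl and 1.05 and 1.59 in PLC5 siGALNT1, with PLC5 siGALNT1 replicate 3 excluded as non-uniform. All 3 HA22T siGALNT1 arrays were below the siControl arrays (-0.85 ± 0.31 (SE), 95% interval -1.54 to -0.17, unadjusted p = 0.0195, adjusted p = 1). The exact permutation test of 3 against 3 arrays gave 0.1 for both, the smallest value it allows.

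The GPX3 estimate in HA22T, 1.77 ± 0.55 (SE), used 1 siGALNT1 array, and the dimmer GPX3 probe with all arrays gave 0.60. GSTP1 differed by 0.71 ± 0.35 (SE) and HMOX1 by 0.67 ± 0.32 (SE), each with an overlap between the groups. Both were higher with siGALNT1 in every same-numbered pair. With these pairs in the limma fit the unadjusted p was 0.0203 for GSTP1 (95% interval 0.15 to 1.27) and 0.0258 for HMOX1 (0.11 to 1.22). It was 0.0149 for GPX2 and 0.0305 for GCLM, and the adjusted p of these genes was 0.795. In that fit 863 of 16967 genes had an unadjusted p below 0.05. On the lower side AKR1B10 differed by -0.42 ± 0.98 (SE), or ± 0.29 (SE) with same-numbered arrays paired (95% interval -1.10 to 0.26, adjusted p = 0.878 by limma), and SRXN1 by -0.34 ± 0.27 (SE), and SRXN1 was below siControl on all 3 siGALNT1 arrays (exact permutation p = 0.1). Groups of 3 arrays did not overlap for 3 of 39 genes with all 6 values, GPX2, GCLM and SRXN1, against 7.01% of all genes.

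**Figure D3:**
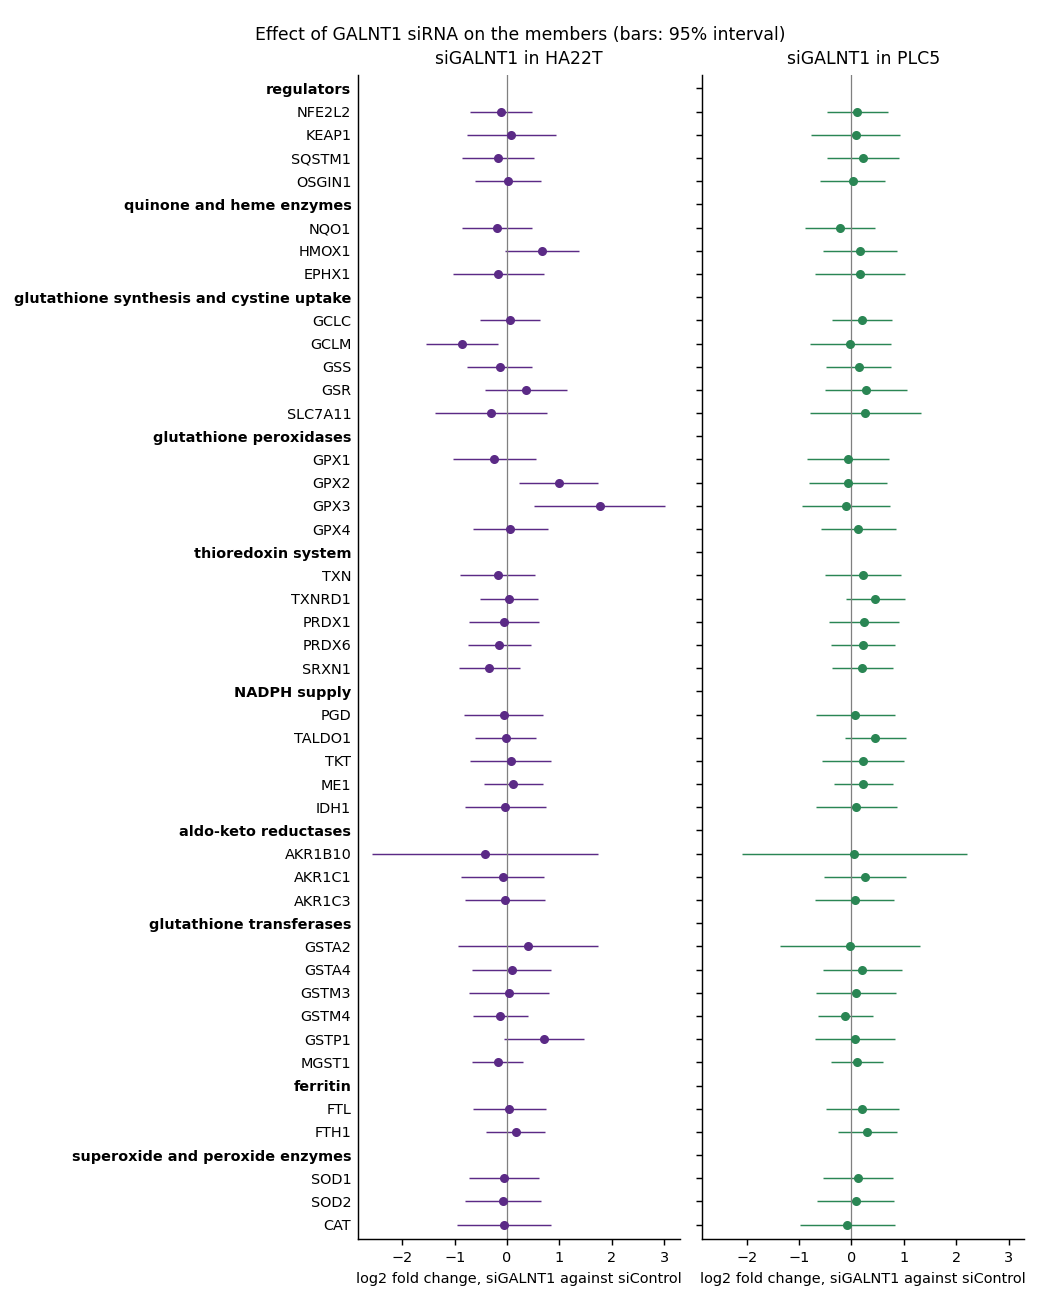
Log2 fold change of siGALNT1 against siControl for the 40 genes in HA22T and in PLC5, ordered by role, with 95% intervals from limma without pairing. The intervals of GCLM, GPX2 and GPX3 in HA22T exclude 0 before adjustment, and all 40 intervals in PLC5 include it.

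In PLC5 0 of 40 genes were called, against 0.0% of 17316 genes, and 0 of 40 had an unadjusted p below 0.05, against 0.768% of all genes. The methods' t-test called 0 after adjustment, and 0 of 40 met the unadjusted threshold with a fold of at least 1.5, against 0.583% of all genes. The largest positive estimates were those of TXNRD1, TALDO1 and FTH1. TXNRD1 differed by 0.46 ± 0.26 (SE), with an interval of -0.10 to 1.01 (adjusted p = 1). TALDO1, transaldolase, lay at 2.05, 1.81 and 1.91 in HA22T siControl, 1.89, 2.31 and 1.49 in HA22T siGALNT1, 1.06, 1.30 and 1.58 in PLC5 siControl and 1.83, 1.63 and 1.83 in PLC5 siGALNT1. Its 3 siGALNT1 arrays were above the siControl arrays (0.45 ± 0.27 (SE), exact permutation p = 0.1), the 1 gene of 39 without overlap, against 4.19% of all genes. FTH1 lay at 8.23, 7.82 and 7.81 in HA22T siControl, 7.87, 8.38 and 8.12 in HA22T siGALNT1, 7.48, 6.94 and 7.37 in PLC5 siControl and 7.74, 7.49 and 7.47 in PLC5 siGALNT1, and its PLC5 difference was 0.30 ± 0.26 (SE).

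The most negative estimates in PLC5 were small. NQO1 differed by -0.22 ± 0.30 (SE), with an interval of -0.88 to 0.45. GSTM4, a mu class transferase, lay at -1.94, -1.82 and -1.71 in HA22T siControl, -2.27, -1.93 and -1.65 in HA22T siGALNT1, -2.49, -2.59 and -2.17 in PLC5 siControl and -2.64, -2.44 and -2.52 in PLC5 siGALNT1 and differed by -0.12 ± 0.24 (SE) in PLC5. GPX3 differed by -0.10 ± 0.36 (SE). The estimate was above 0 for 32 of the 40 genes in PLC5, against 58.8% of all genes, and for 17 of 40 in HA22T, against 53.8%. The HA22T shares move with the scaling, to 8 of 40 against 41.0% with median scaling, 7 against 35.2% in the deposited table and 7 against 37.1% with non-uniform spots kept. The PLC5 share of all genes moves with the array left out. It was 8059 of 17279 without PLC5 siControl replicate 2 and 10963 of 17279 without PLC5 siControl replicate 1. The median level of the list was 2.72, 2.42 and 2.58 in PLC5 siControl and 2.61, 2.86 and 2.72 in PLC5 siGALNT1. The median of the list was 0.12 in PLC5, where the median of all genes was 0.04, and -0.05 in HA22T, where it was 0.02.

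These intervals leave room for moderate effects. For NFE2L2 the interval was -0.70 to 0.48 in HA22T and -0.48 to 0.71 in PLC5, and for TXN -0.91 to 0.54 and -0.50 to 0.95. AKR1B10 had the widest interval in both lines without pairing, -2.57 to 1.73 in HA22T and -2.10 to 2.21 in PLC5, and its replicate 1 arrays in HA22T lay far below the others with both siRNAs. The difference between the lines in the siGALNT1 effect was called for 0 of 40 genes, against 0.0% of 16390 genes, and 1 of 40 had an unadjusted p below 0.05, against 1.66% of all genes. By limma that gene was GPX3 (-1.87 ± 0.66 (SE), unadjusted p = 0.0212, adjusted p = 1), an estimate with 1 HA22T siGALNT1 array (the dimmer probe with all arrays gave -0.35, unadjusted p = 0.427), and GPX2 followed with -1.05 ± 0.48 (SE) (unadjusted p = 0.0528, adjusted p = 1, both by limma).

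The arrays of replicate 1 stood apart for many of these genes whatever the siRNA. In HA22T both replicate 1 arrays were above the other 4 HA22T arrays for 5 of 39 genes and below them for 13, against 21.3% and 14.6% of all genes. The gap was at least 1 log2 unit for 1 of the 39, AKR1B10 (2.40), against 1.53% of all genes. SLC7A11 lay at 0.58, -0.58 and -0.81 in HA22T siControl and 0.29, -1.14 and -0.89 in HA22T siGALNT1, with both replicate 1 arrays highest. In PLC5, where replicate 1 is also the pair on slide 1, both arrays were above the other 4 for 15 of 39 genes and below for 5, against 30.4% and 12.3% of all genes. Replicate and slide cannot be told apart in PLC5. Without the replicate 1 pair of HA22T 18 genes of the list were called between the lines with siControl, without that of PLC5 17, and without both 18. Over all genes the calls were, in the same order, 3997 of 17327, 4624 of 17375 and 3963 of 17285. With all arrays they were 4824 of 17417.

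**Figure D4:**
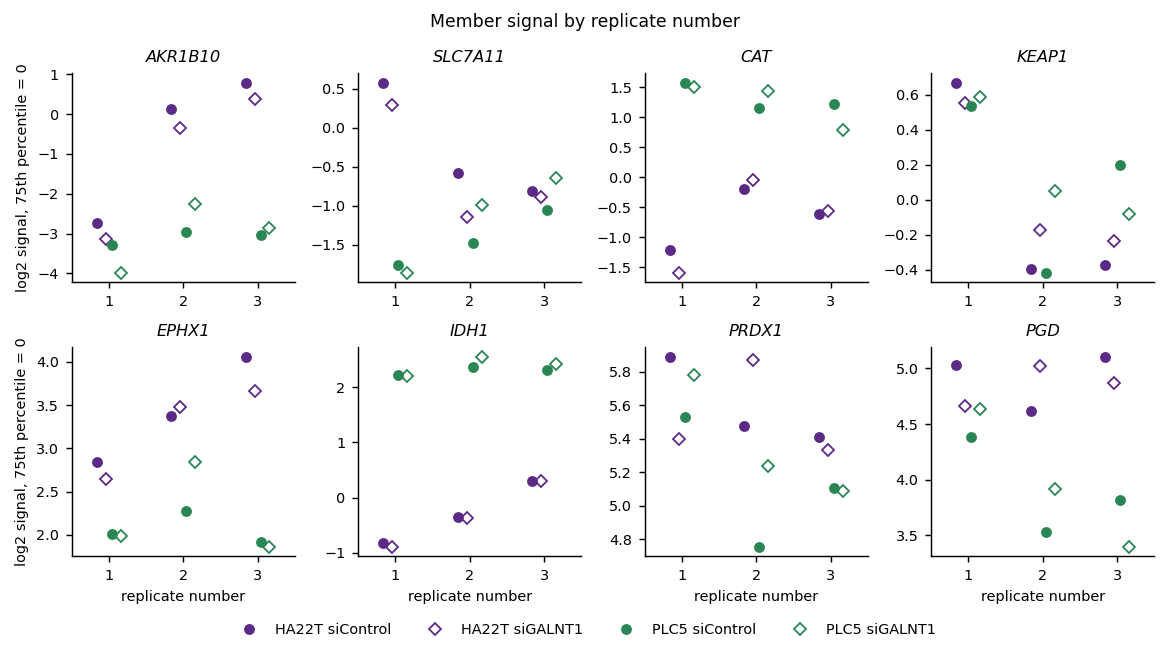
Log2 signal of 8 genes by replicate number, with HA22T in purple, PLC5 in green, siControl as filled circles and siGALNT1 as open diamonds, and 0 at the 75th percentile of the array. AKR1B10 reads -2.74 and -3.13 in HA22T replicate 1 and -0.35 to 0.79 in HA22T replicates 2 and 3.

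Other genes of the pathway were read from a list of 48, of which 46 have a probe and 44 passed the filter in each comparison. With siControl 6 were higher and 9 lower in PLC5, 34.1% of the 44, against 27.7% of all genes. With siGALNT1 11 were higher and 9 lower, 45.5% against 28.9% of all genes. The 6 largest differences among those called with siControl went both ways. CHAC1, which breaks down glutathione, was 19.1-fold higher in PLC5 (4.25 ± 0.27 (SE), adjusted p = 1.1e-06), and GLRX, glutaredoxin, 4.34-fold higher (2.12 ± 0.36 (SE), adjusted p = 0.00128). SOD3, extracellular superoxide dismutase, which was well above background on 2 of the 3 PLC5 siControl arrays, was lower by -4.18 ± 0.65 (SE), ABCC3, an exporter of glutathione and glucuronide conjugates, by -3.95 ± 0.42 (SE), ALDH3A2, fatty aldehyde dehydrogenase, by -2.51 ± 0.27 (SE), and AKR1B1, aldose reductase, by -2.31 ± 0.43 (SE) (adjusted p = 7.1e-04, 4.8e-05, 4.6e-05 and 0.00242). None of the 44 was called for siGALNT1 in either line by limma (0 of 44 in both, against 0.0% of all genes). At an unadjusted p below 0.05 there were 0 in HA22T, against 2.82% of all genes, and 1 in PLC5, against 0.768%.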

How the data were processed

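RNA of HA22T and PLC5 cells was measured on 12 one-color arrays, 3 in each group of line and siRNA. The authors read the scans with Agilent Feature Extraction 10.5.1.1, a version also given in the submitters' processing notes. The deposited intensity values used here are the processed signal, already corrected for background by that software, and, for 1 alternative, the median brightness of spot and surroundings. A deposited table of log2 values equals the log2 of the processed signal minus a constant for each array (column medians -2.711 to -2.465), and the origin of the constant is not given in the sources used here. Non-uniform spots, which the methods exclude, were left out (489 to 3633 on an array).

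Log2 values were set relative to the 75th percentile of the array, and 28174 of 50599 probes were named through RefSeq accessions without versions. All 4 groups entered 1 fit without covariates (lmFit and eBayes, limma 3.58.1, R 4.3.3). The Benjamini-Hochberg adjustment covered the probes that stood well above background in 3 or more of a comparison's 6 arrays. A gene was represented by the brightest of its probes with a value in every group, for the list and for all genes alike. Values on every array are given for NFE2L2, KEAP1, NQO1, the 15 called genes with the largest line difference with siControl, and the 3 most positive and 3 most negative siGALNT1 estimates in each line. The exact permutation test was two-sided, and its smallest possible p is 0.1. Arrays give no counts, so the number of arrays limits the precision. The genes, lists and tests were chosen with earlier results of these data known. The fit was tested on simulated data. Some results are not reported here.

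To check pairing, each array's deviation from the mean of its group was correlated between the siControl and the siGALNT1 array of the same number. The correlations were 0.48, 0.183 and 0.324 in HA22T, all above 0.1, and 0.554, 0.043 and 0.197 in PLC5. Replicate 1 thus gave the highest same-numbered value in each line. Differently numbered arrays reached 0.218 in HA22T (siControl 3 with siGALNT1 2), above the 0.183 of replicate 2. They reached 0.369 in PLC5 (siControl 2 with siGALNT1 3), above replicates 2 and 3. Whether the numbers pair the arrays is therefore not settled by these values in either line, and the labels give numbers only. Alternatives were normexp background correction (offset 50, on the median brightness), quantile and median scaling, the deposited table, other filters on dim or non-uniform spots, population outliers left out, slide or replicate as a block, single slides, groups fitted alone, a trend in the prior, Student's test as the methods' t-test, other ways of joining probes, and single arrays left out. A prior from the counted probes and the removal of replicate 1 pairs were added after seeing the data.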

Additional observations from a re-analysis of the deposited data

How the results depend on the processing

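Of the genes called between the lines with siControl, GPX2, GSTP1, TXN and TXNRD1 were called under every alternative and with every single array left out, and none of the 19 changed sign. Within slide 1 the count was 5 with siControl (19 before) and 5 with siGALNT1 (17 before), where PLC5 has 1 array in each group and is assumed to vary like HA22T. With siGALNT1 the count was 11 with the groups fitted alone and 10 by the methods' t-test, both with fewer samples behind the spread. The calls over all 17201 genes fell as well, from 4977 to 3046 and 2581. With single arrays left out the count was 15 to 20 with siControl and 13 to 17 with siGALNT1. Over all genes it was then 3561 to 4928 with siControl and 3421 to 4977 with siGALNT1. GSTM3 was not tested when a probe had to be well above background on all 6 arrays. The median of the list under quantile normalization was -0.31 with siControl and -0.25 with siGALNT1. With siGALNT1 it was also -0.26 in the deposited table, -0.20 with non-uniform spots kept and -0.36 with the slide as a block, against -0.53 before, and the cause was not tested. The median of all genes moved with it, with siGALNT1 from -0.29 to -0.17 (quantile), -0.09 (deposited table) and -0.07 (non-uniform spots kept). The share of all calls that were higher in PLC5 with siGALNT1 was 41.1%, but 55.0% in the deposited table and 56.1% with non-uniform spots kept. Averaging its probes turned GPX3 in PLC5 against HA22T with siGALNT1 from -0.67 to 2.57 (adjusted p = 0.00735), where arrays without the brighter probe carried the dimmer one alone.

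For siGALNT1 the number of called genes of the list was 0 in HA22T, in PLC5 and in the difference between the lines under all alternatives run (the t-test and groups fitted alone give no value for the difference) and with each single array left out (0 to 0). With the replicate block, which pairs same-numbered arrays, it was also 0 in each, and the block changed no call. The median of the list with single arrays left out ranged from -0.65 to -0.51 between the lines with siControl, from -0.56 to -0.43 with siGALNT1, from -0.14 to 0.13 for siGALNT1 in HA22T, from -0.01 to 0.24 in PLC5, and from 0.01 to 0.31 for the difference. Slide 2 holds no HA22T array, so the line comparisons could not be run within it. Signal close to background limits GSTM3 in HA22T and SOD3 in PLC5, and excluded spots limit GPX3. GPX2 in HA22T was dim as well, at -4.47 to -2.72, though well above background on every array.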

Other observations

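TXNIP, which binds and inhibits thioredoxin, was chosen after its values were seen. It lay at -5.06 and -5.20 on the HA22T replicate 1 arrays (siControl and siGALNT1) and at 0.87, 1.20, -0.41 and -0.34 on the HA22T arrays of replicates 2 and 3. In PLC5 it lay between -4.92 and -3.80. Its gap of 4.64 log2 units was the largest of the 42 other pathway genes with a value on all 6 HA22T arrays, and the gap of AKR1B10 (2.40) was the largest of the 39 genes of the list. Both replicate 1 arrays were apart from the other 4 HA22T arrays by at least 1 log2 unit for 1.53% of all genes. The labels give no reason for the difference between these arrays.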
